A study of Mus musculus with 108 samples.

Results

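Gdf9, Bmp15, Bmp6, Fgf8, Kit and Gja4 are 6 genes through which the mouse oocyte signals to, or receives signals from, the granulosa cells around it. They were taken by symbol from the 55573 gene IDs counted in each oocyte, and all 6 were found. The samples were single oocytes, either from control females or from females in which Exosc10, which encodes a nuclease of the nuclear RNA exosome, was knocked out in the oocyte (cKO). PolyA libraries, captured on oligo(dT), held GV oocytes (germinal vesicle stage, before meiosis resumes; 15 cKO and 7 control), GV3h oocytes (3 hours further in culture; 11 and 8) and MII eggs (15 and 8). RiboMinus libraries, primed with random hexamers and depleted of ribosomal RNA, held GV oocytes (7 cKO and 8 control) and MII eggs (4 and 3). GV and GV3h oocytes were held in M2 medium and MII eggs were dissected from oviducts, so stage and source cannot be told apart. The driver of the knockout, the alleles of the controls, and the strain and age of the females are not given in the sources used here. The oocytes of a group came from 2 or 3 females, except the RiboMinus MII controls, which all came from 1 female, V1145. The V number in each sample title was taken as the female. The 23 females were the replicates of the main tests, and no female gave oocytes to more than 1 group.

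Gdf9 and Bmp15 encode secreted TGF-beta family ligands that act on granulosa and cumulus cells through BMPR2 and type I receptors, and Bmp6 encodes a further BMP ligand. The oocyte's FGF8 binds FGF receptors of cumulus cells, where it cooperates with BMP15, which signals through its own receptors. In the other direction, KIT ligand from granulosa cells binds the receptor tyrosine kinase KIT on the oocyte and acts through PI3K. Gja4 encodes connexin 37, the oocyte's gap junction subunit, through which metabolites and cyclic nucleotides pass. A fully grown oocyte is nearly silent in transcription, and during maturation it lengthens the poly(A) tails of some stored messages and shortens those of others, so that oligo(dT) capture can change without a change in the amount of a message. The counts do not measure tail length.

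The 3′ ends of the messages are where an oligo(dT) library begins, and where the hexamer AAUAAA and nearby cytoplasmic polyadenylation elements are known to act. A stretch is shown for each of the genes with AATAAA or ATTAAA in the last 40 bases of its annotated transcript. Each line gives 30 bases of the GRCm38 genome (GENCODE M21), 5′ to 3′ on the gene's own strand, with AATAAA and TTTTAT in capitals where the script found them.
Gdf9, chr11:53437866-53437895, + strand: TTTTATgtgacggaagAATAAActgttgat
Bmp15, chrX:6314117-6314146, - strand: ttaatcttaaagAATAAAttttcatttatg
Kit, chr5:75656684-75656713, + strand: ctgaagaattctAATAAAaatgtaaatata
Gja4, chr4:127311425-127311454, - strand: ttatgatcctcaAATAAAcaggactccatc
All 4 stretches lie in the 3′UTR of the last exon. The motifs TTTTAT and TTTTAAT were searched in the last 100 bases of the transcript, and AATAAA and ATTAAA in the last 40, on the sense strand only. Gdf9, whose TTTTAT begins 39 bases from the end, and Bmp6, at 79 bases, held a TTTTAT in that window. The nearest TTTTAT of Kit was 145 bases and that of Bmp15 530 bases from the end, and Fgf8 and Gja4 had neither motif in the whole 3′UTR. Of 19408 coding genes with a 3′UTR of at least 100 bases, 17.9% held TTTTAT or TTTTAAT in the last 100 bases and 73.6% held AATAAA or ATTAAA in the last 40. Bmp6 and Fgf8 held neither hexamer in the last 40 bases of the annotated transcript.

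The genes lie on 6 chromosomes of GRCm38: Gdf9 at chr11:53431023-53437904, Bmp15 at chrX:6314107-6320721, Bmp6 at chr13:38345107-38500302, Fgf8 at chr19:45736798-45742915, Kit at chr5:75574916-75656722 and Gja4 at chr4:127311421-127314039. The exons of Bmp6 share 224 bases with those of Txndc5 on the opposite strand, and the strand setting of the counting is not given in the sources used here, so its counts are uncertain. No other member overlapped an annotated gene.

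Total gene counts ran from 4638718 to 8735914 in the polyA libraries and from 12319658 to 62675760 in the RiboMinus libraries. Values are CPM, a gene's count scaled to the size of its library, here after TMM adjustment. The files hold 0 lines for the spike-in RNAs, so a level is relative to the other genes of its library, not an amount per oocyte. Exosc10, the targeted gene, stood at 43 CPM or more in every control oocyte and at 8.28 CPM or less in every cKO oocyte. Summed CPM of 10 oocyte markers ranged from 10418 to 18766 in the polyA and from 3787 to 6764 in the RiboMinus oocytes, with all 10 detected in each group. Summed CPM of 14 granulosa and cumulus markers ranged from 69.4 to 175 in the polyA and from 75.6 to 206 in the RiboMinus oocytes, with 9 to 13 of the 14 detected in a group. In the polyA MII controls 4 of the 14 (Fshr, Foxl2, Inha and Hsd17b1) were at 0 counts in all 8 eggs, whereas Cyp19a1 had a median of 94.3 CPM beside 38.5 in GV controls, Kitl 13 beside 5.48 and Nr5a2 23 beside 37.8. The part of such markers in the results was not tested.

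All 6 genes were counted in every oocyte, the lowest value being 14 counts of Fgf8 in an MII control egg, and all 6 passed the filter on low counts in each fit. Per kb of the annotated protein-coding transcript, UTRs included, the polyA GV controls held 2609 CPM of Gdf9, the second highest value (rank 2) among 16388 coding genes with a count. Bmp15 followed with 965 CPM per kb (rank 33) and Gja4 with 786 (rank 42). Fgf8 at 101 and Kit at 99.4 CPM per kb could not be ordered, because the means of the control females ran from 82.9 to 119 for Fgf8 and from 80.2 to 119 for Kit. Bmp6 was lowest at 26.2 CPM per kb (rank 2916). In the RiboMinus GV controls the order was Gdf9 at 1103, Bmp15 at 693, Gja4 at 275, Fgf8 at 107, Kit at 91.7 and Bmp6 at 73.7 CPM per kb. At MII the polyA order had changed: Gdf9 stood at 4953, Bmp15 at 1028, Kit at 163, Gja4 at 84, Bmp6 at 20.5 and Fgf8 at 6.03 CPM per kb.

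**Figure D1:**
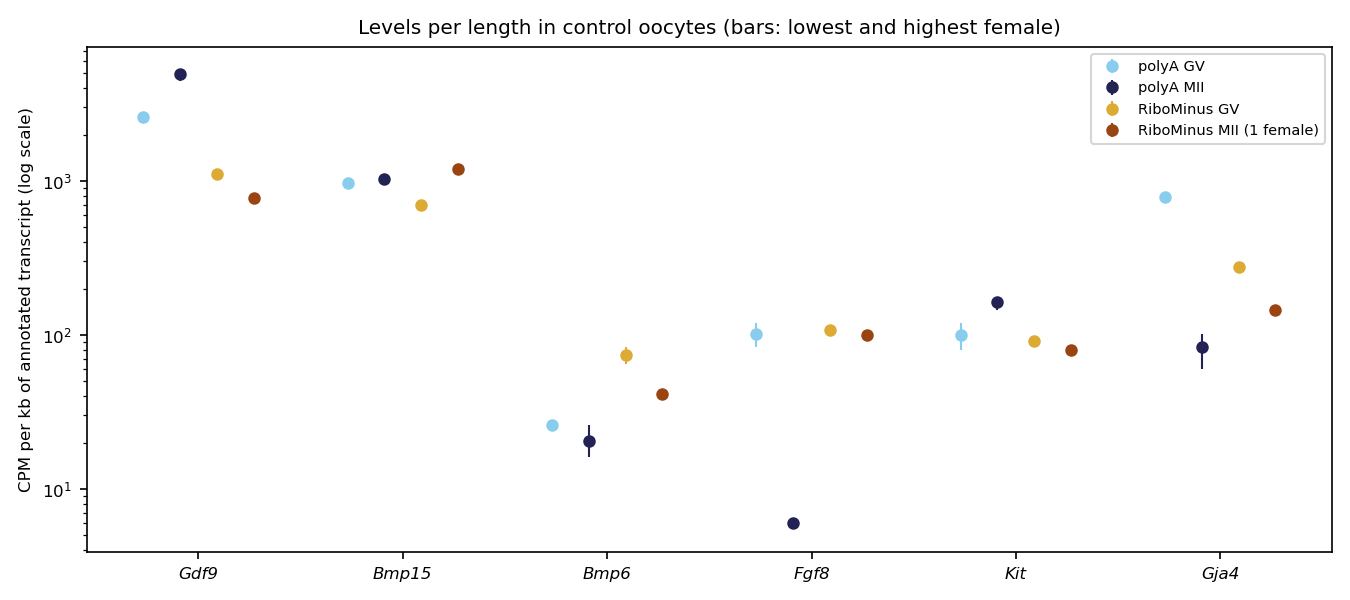
Levels of the 6 genes in control oocytes, as CPM per kb of the annotated transcript on a log axis; points are means of the female means and bars run from the lowest to the highest female. Gdf9 leads in polyA libraries at both stages, and Fgf8 drops to 6.03 CPM per kb in polyA MII eggs while its RiboMinus values are 107 and 99.6.

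From GV to MII the control polyA libraries showed higher Gdf9 and Kit and much lower Fgf8 and Gja4. In this comparison 4 of the 6 genes passed the test (Benjamini-Hochberg adjusted p under 0.05), 2 in each direction, where 42.5% of all genes tested passed. In cKO oocytes 4 of 6 passed as well (44.7% of all genes): Gdf9 and Bmp15 rose and Fgf8 and Gja4 fell. Over the 6 genes the median change was -0.09 on the log2 scale for controls and 0.04 for cKO oocytes, where the median of all genes was -0.26 and -0.33. The size of these changes depends on the scaling: with library totals in place of TMM the median gene moved a further -0.43 in controls and -0.52 in cKO oocytes. Relative to the median gene the members' changes were the same under both scalings to within 0.01 on the log2 scale.

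**Figure D2:**
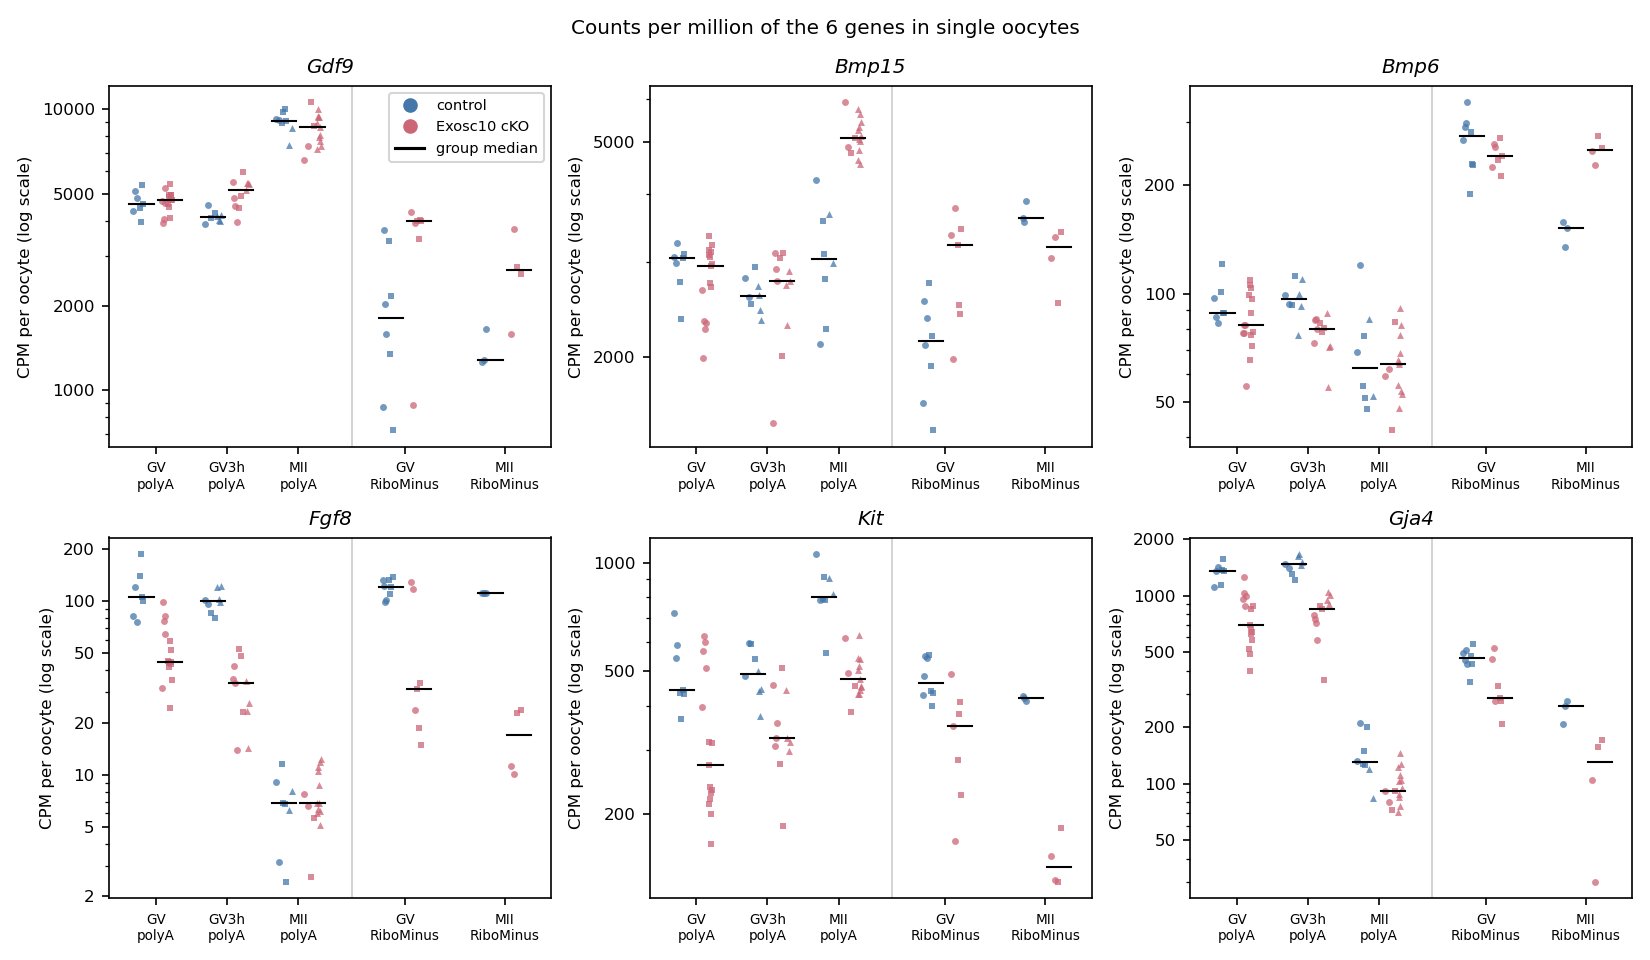
CPM of each gene in every oocyte on log axes, by stage and library, with controls in blue, cKO oocytes in red, a marker shape for each female of a group and a line at the group median. Fgf8 and Gja4 drop at MII in the polyA libraries in both genotypes, and Bmp15 is higher in cKO than in control MII eggs there.

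Gdf9 polyA CPM ran from 3961 over a median of 4592 to 5376 in GV controls and from 7475 over 9085 to 9978 in MII controls. The oocytes of the 2 stages did not overlap. The rise was 1.96-fold (log2 0.97, SE 0.14, adjusted p = 2.37e-05), and in cKO oocytes it was 1.89-fold (log2 0.92, SE 0.13, adjusted p = 4.51e-05). Relative to the median gene it was 1.23 in controls and 1.25 in cKO oocytes on the log2 scale.

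Bmp15, the partner of GDF9, ran from 2350 over 3044 to 3252 CPM in GV controls and from 2113 over 3037 to 4252 in MII controls. These ranges overlapped, and the log2 change of 0.14 (SE 0.12, adjusted p = 0.357) did not pass; with library totals it was -0.29. In cKO oocytes Bmp15 ran from 1990 over 2947 to 3348 CPM at GV and from 4553 over 5073 to 5908 at MII, with no overlap. That rise was 2.03-fold (log2 1.02, SE 0.12, adjusted p = 5.49e-06). The changes of the genotypes were compared as an interaction, in which 1 of the 10 oocyte markers was higher and 0 lower. The markers' median was 0.47, beside 0.10 over all genes, and their part was not tested. For Bmp15 the changes differed by 0.88 on the log2 scale (SE 0.17, adjusted p = 0.0141), the 1 member for which this interaction passed, beside 1.94% of all genes. The interaction lost its call when the cKO female V857 (0.71, adjusted p = 0.0572) or the control females V856 (0.82, adjusted p = 0.0605) or V889 (0.94, adjusted p = 0.051) was left out, and when only the groups compared were fitted (0.85, adjusted p = 0.137).

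Fgf8 fell furthest of the 6 genes in controls. Its polyA CPM ran from 76.2 over 106 to 187 in GV controls and from 2.42 over 6.89 to 11.5 in MII controls, where 14 to 82 reads per egg were counted. The groups lay far apart, a 15.8-fold fall (log2 -3.98, SE 0.32, adjusted p = 6.85e-08). In cKO oocytes the range went from 24.3 over 44.6 to 99.2 CPM at GV to 2.59 over 6.88 to 12.3 at MII, an 8.08-fold fall (log2 -3.01, SE 0.31, adjusted p = 1.17e-06). The difference between the 2 falls was 0.97 (SE 0.43) and did not pass (adjusted p = 0.278).

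Gja4, the connexin, ran from 1117 over 1357 to 1559 CPM in GV controls and from 83.6 over 131 to 210 in MII controls. No oocyte of one stage reached the other, and the fall was 9.17-fold (log2 -3.20, SE 0.24, adjusted p = 3.67e-08). In cKO oocytes it fell 8.63-fold (log2 -3.11, SE 0.24, adjusted p = 9.09e-08), from a median of 699 to 92.1 CPM.

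Kit ran from 367 over 441 to 724 CPM in GV controls and from 562 over 805 to 1058 in MII controls. The oocytes overlapped but the female means did not (418 and 618 at GV, 763 to 924 at MII), and the rise was 1.7-fold (log2 0.76, SE 0.26, adjusted p = 0.0282). With library totals it was 0.33 (adjusted p = 0.332), and it lost its call without the control females V889 (0.54, adjusted p = 0.238), V836 (0.69, adjusted p = 0.0704) or V896 (0.77, adjusted p = 0.0504). In cKO oocytes the value of 0.41 (SE 0.26, adjusted p = 0.221) did not pass, and it was -0.07 (adjusted p = 0.817) without the GV female V888 and 1.12 (adjusted p = 0.00157) without V857, whose 5 oocytes had a mean of 539 CPM of Kit beside 239 in the 10 of V888. Bmp6 passed in neither genotype, with a median of 88.5 CPM at GV and 62.2 at MII in controls (log2 -0.33, SE 0.18, adjusted p = 0.154) and of 81.8 and 63.8 in cKO oocytes (-0.32, SE 0.18, adjusted p = 0.155). With library totals Bmp6 passed in both (-0.76, adjusted p = 0.00222 and -0.85, adjusted p = 0.000851), as it did in controls without V836 (-0.55, adjusted p = 0.0113).

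**Figure D3:**
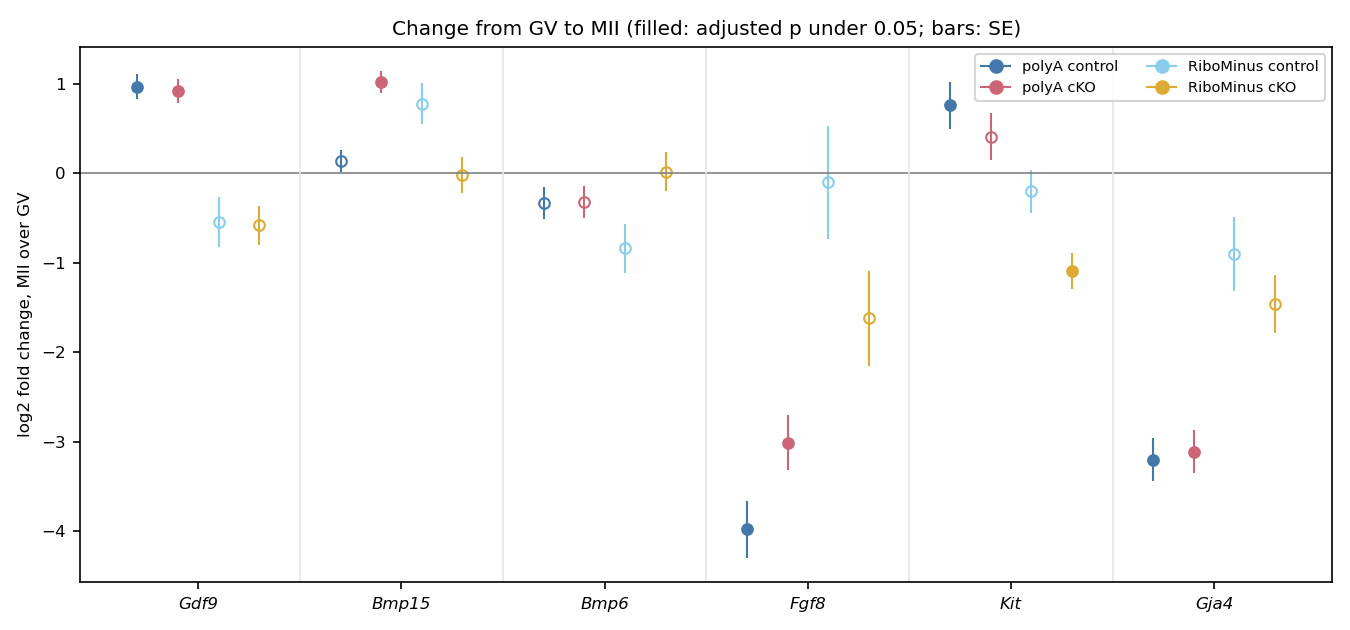
Log2 fold change from GV to MII for the 6 genes, by genotype and library; points are estimates over females, bars are standard errors, and filled points passed the test. Fgf8 in controls fell by 3.98 in the polyA libraries beside -0.10 in the RiboMinus libraries, and Gdf9 lies above 0 in polyA and below 0 in RiboMinus libraries.

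The RiboMinus libraries of the controls gave another picture of the same stages, with 0 of 6 genes past the test by edgeR (0.00787% of all genes; 2 members had an unadjusted p under 0.05, and DESeq2 called 1). These counts depend on the fit: with only the 3 females of the groups compared, 4 of 6 members and 5732 of 20552 genes (27.9%) were called, and DESeq2 called 1619 genes. Fgf8 RiboMinus CPM ran from 98.6 over 121 to 137 in GV controls and was 111, 111 and 112 in the 3 MII control eggs. The eggs lay within the GV range (log2 -0.10, SE 0.63, adjusted p = 0.997). Gdf9 ran from 719 over 1807 to 3725 CPM at GV, a wide range within both females, and was 1260, 1282 and 1655 at MII (log2 -0.54, SE 0.28, adjusted p = 0.406). Bmp15 ran from 1462 over 2143 to 2743 and was 3550, 3612 and 3882 in the eggs, above every GV control (0.78, SE 0.23, adjusted p = 0.183). Bmp6 ran from 189 over 273 to 339 and was 135, 152 and 158 in the eggs, below every GV control (-0.84, SE 0.27, adjusted p = 0.217). Gja4 ran from 346 over 466 to 555 and was 208, 258 and 275 in the eggs, again with no overlap (-0.90, SE 0.41, adjusted p = 0.342). Kit ran from 399 over 461 to 552 and was 411, 421 and 425 in the eggs (-0.20, SE 0.24, adjusted p = 0.714). All 3 eggs are from female V1145, so female and stage cannot be told apart here.

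In cKO RiboMinus libraries 1 of 6 genes passed (2.32% of all genes, 591 genes, which became 0 with only the groups compared and 6 without V1166). Kit fell from a median of 351 CPM (168 to 491) at GV to 152, 131, 129 and 182 CPM at MII, a 2.13-fold fall (log2 -1.09, SE 0.20, adjusted p = 0.0387). Its call was lost without V1131 (-1.05, adjusted p = 0.117) or V1166 (-1.05, adjusted p = 0.0783), and with only the groups compared (-1.07, adjusted p = 0.137). Gja4 went from a median of 287 CPM (207 to 528) to 105, 30.1, 157 and 170 (-1.46, SE 0.32, adjusted p = 0.0564). Fgf8 went from a median of 31 CPM (14.9 to 129) to 11.2, 10.1, 22.8 and 23.5 (-1.62, SE 0.53, adjusted p = 0.139). With 1 female left out the Fgf8 value ran from -2.26 without V1167 to -0.54 without V1126, and that of Gja4 from -1.98 (adjusted p = 0.0209) without V1167 to -1.06 without V1166. The fall of Gdf9, from a median of 4006 to 2669 CPM, did not pass either (-0.58, SE 0.22, adjusted p = 0.195). No member passed the test of a different stage change between genotypes in these libraries (0% of all genes by edgeR, 3611 of 25425 at an unadjusted p under 0.05, 1141 by DESeq2). Of the members 3 had an unadjusted p under 0.05 there, and DESeq2 called 0.

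The polyA and RiboMinus changes from GV to MII were then compared within 1 fit over both kinds of library. The RiboMinus MII controls in it are female V1145 alone. The kinds of library came from different females, so library type and female cannot be told apart. In controls the polyA change exceeded the RiboMinus change for Gdf9 by 1.68 (SE 0.27, adjusted p = 7.59e-05) and for Kit by 1.14 (SE 0.40, adjusted p = 0.0429). It was lower for Fgf8 by a log2 difference of -3.72 (SE 0.64, adjusted p = 0.00016) and for Gja4 of -2.13 (SE 0.44, adjusted p = 0.000944). Thus 4 of 6 passed, beside 22.8% of all genes. In cKO oocytes 4 of 6 passed, beside 20.7%: Gdf9 at 1.67 (SE 0.23, adjusted p = 2.76e-05), Bmp15 at 1.22 (SE 0.20, adjusted p = 0.000128), Kit at 1.69 (SE 0.35, adjusted p = 0.00127) and Gja4 at -1.46 (SE 0.40, adjusted p = 0.0111). Fgf8 in cKO oocytes gave -1.20 (SE 0.58, adjusted p = 0.16). Of the 2 genes with a TTTTAT in the last 100 bases, Gdf9 passed in both genotypes and Bmp6 in neither, and Kit, which has none there, passed in both. No relation between the motif and these changes was tested. In the same comparison the 10 oocyte markers had a median of -0.92 in controls and 0.27 in cKO oocytes. The medians of all genes were 0.00 and -0.24, and the part of the markers was not tested. With library totals Bmp6 passed in cKO oocytes (-0.89, adjusted p = 0.0182) and Bmp15 in controls (-1.01, adjusted p = 0.000629). The Kit difference lost its call with library totals in controls (0.60, adjusted p = 0.337) and in cKO oocytes (0.97, adjusted p = 0.0587), and in controls also without V889, V836, V896, V1132 or V1133 (0.90 to 1.20, adjusted p from 0.0588 to 0.166). That of Gja4 in cKO oocytes lost it without V857, V1131 or V1167 (-0.93 to -1.19, adjusted p from 0.07 to 0.104), and Fgf8 in cKO oocytes passed without V1126 (-2.28, adjusted p = 0.00695), with library totals (-1.99, adjusted p = 0.0186) and with DESeq2 (-1.45, adjusted p = 0.0495), whereas it was -0.56 without V1131 or V1167 (adjusted p up to 0.572).

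After 3 hours in culture none of the 6 genes differed past the test from GV oocytes. In controls the log2 changes ran from -0.21 to 0.09 (0% of all genes called by edgeR, 425 of 19242 at an unadjusted p under 0.05, 18 by DESeq2). In cKO oocytes they ran from -0.79, the value of Fgf8, to 0.11 (0% called, 373 at an unadjusted p under 0.05, 17 by DESeq2). The changes of the genotypes differed by -0.58 to 0.28 (0% called, 307 at an unadjusted p under 0.05, 0 by DESeq2). By both tools 0 members were called in these 3 comparisons, and Fgf8 in cKO oocytes was the 1 member with an unadjusted p under 0.05 (0.0159).

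In cKO oocytes Fgf8, Kit and Gja4 were each lower past the test in at least 1 genotype comparison, and polyA Bmp15 was higher at MII. At polyA GV3h 2 of 6 genes passed, both lower in cKO oocytes, where 25.2% of all genes passed. At polyA MII 3 of 6 passed, 1 higher and 2 lower (18.9% of all genes). At RiboMinus MII 2 of 6 passed, both lower (7.3% of all genes). At polyA GV 0 of 6 passed by edgeR (7.38% of all genes), with 2 at an unadjusted p under 0.05 and 2 called by DESeq2. At RiboMinus GV 0 of 6 passed (0.0315% of all genes), with 4 at an unadjusted p under 0.05 and 0 called by DESeq2. In polyA libraries the median log2 difference of the 6 genes was -0.37 at GV, -0.52 at GV3h and -0.19 at MII, where all genes had medians of 0.08, 0.07 and 0.12. In RiboMinus libraries it was -0.33 at GV and -0.71 at MII, where all genes had medians of 0.04 and 0.25. With library totals the median gene was a further 0.19 higher in cKO oocytes at polyA GV, 0.23 at GV3h, 0.13 at RiboMinus GV and 0.20 at RiboMinus MII.

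**Figure D4:**
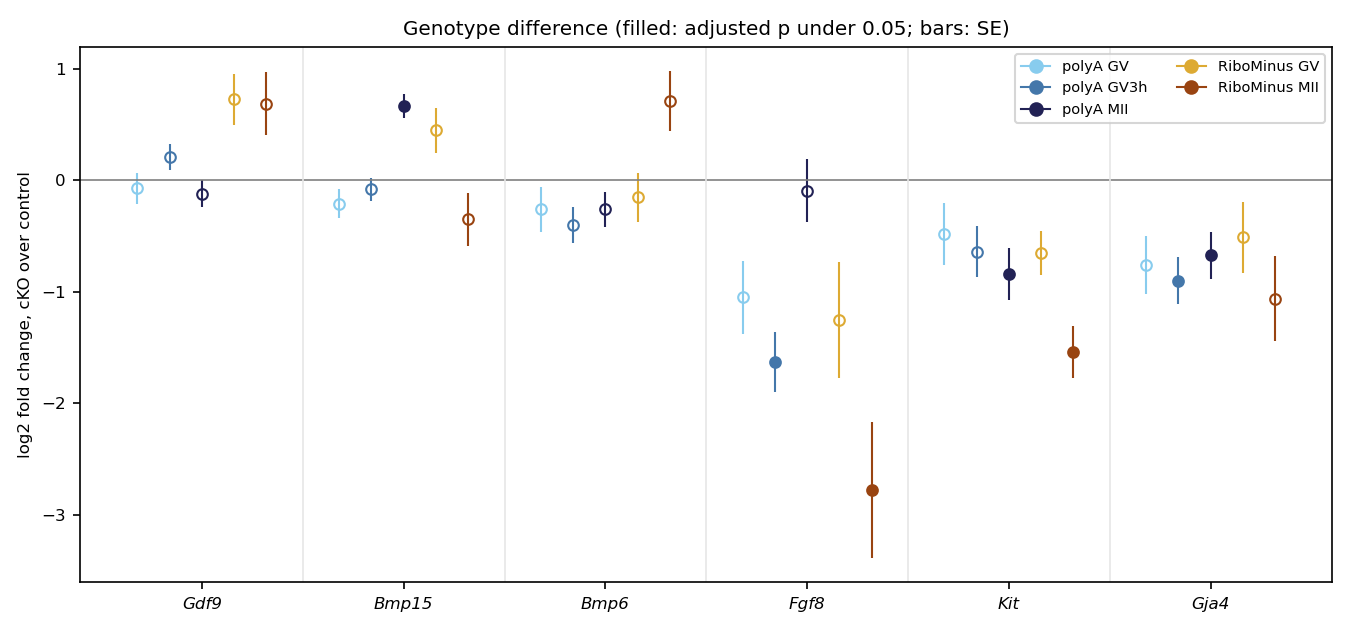
Log2 fold change of cKO over control oocytes for the 6 genes in the 5 genotype comparisons; points are estimates over females, bars are standard errors, and filled points passed the test. Fgf8, Kit and Gja4 lie below 0 in all 5 comparisons, Fgf8 only by -0.09 at polyA MII. Fgf8 in RiboMinus MII eggs has the lowest value, -2.78, where the controls are 1 female.

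Fgf8, the ligand for cumulus FGF receptors, ran from 79.5 over 100 to 123 CPM in polyA GV3h controls and from 13.9 over 33.8 to 53.1 in cKO oocytes. Every cKO oocyte was below every control, and the difference was 3.1-fold (log2 -1.63, SE 0.27, adjusted p = 0.00061). At polyA GV the female means were 43.4 and 71 CPM in cKO and 92.7 and 133 in control females; they did not overlap, but the difference did not pass (log2 -1.05, SE 0.33, adjusted p = 0.0597). At polyA MII both groups were low and overlapped (log2 -0.09, SE 0.28, adjusted p = 0.871). In RiboMinus MII eggs the 4 cKO values of 10.1 to 23.5 CPM lay below the 3 control values of 111 to 112, a 6.86-fold difference (log2 -2.78, SE 0.61, adjusted p = 0.0356). The 3 control eggs are from female V1145 alone, so female and genotype cannot be told apart here. Without the cKO female V1166 the difference was -2.32 (adjusted p = 0.0844). At RiboMinus GV the oocytes of 1 cKO female differed among themselves: V1126 gave 129, 117 and 23.7 CPM, and V1131 gave 31, 18.7, 33.9 and 14.9. The first 2 of these lie within the control range of 98.6 to 137, with Exosc10 at 8.28 and 4.2 CPM beside 94 or more in controls. The difference of -1.25 (SE 0.52, adjusted p = 0.321) did not pass, and it was -2.34 (adjusted p = 0.0423) without V1126 and -0.64 (adjusted p = 1) without V1131.

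Gja4 was lower in cKO oocytes at polyA GV3h, with 357 over 851 to 1048 CPM beside 1206 over 1470 to 1667 in controls. The groups did not overlap, and the difference was 1.87-fold (log2 -0.90, SE 0.21, adjusted p = 0.00566). At polyA GV the range of 396 over 699 to 1255 CPM in cKO oocytes overlapped that of 1117 over 1357 to 1559 in controls (-0.76, SE 0.26, adjusted p = 0.0832); it was -1.16 (adjusted p = 0.0409) without V857 and -0.45 (adjusted p = 0.355) without V888. At polyA MII the oocytes overlapped, as did the female means (82.4 to 103 CPM in cKO and 102 to 172 in control females). Gja4 was 1.59-fold lower in cKO eggs there (-0.67, SE 0.21, adjusted p = 0.0373). That call was lost without any 1 of V841, V842, V836 or V853 (-0.51 to -0.62, adjusted p from 0.0998 to 0.14), with library totals (-0.57, adjusted p = 0.0533) and with limma voom (-0.56, adjusted p = 0.119). The RiboMinus MII controls are female V1145 alone, so female and genotype cannot be told apart at that stage. The RiboMinus difference at GV was -0.51 (SE 0.32, adjusted p = 0.501), and it ran from -0.81 to -0.25 with 1 female left out. At RiboMinus MII it was -1.06 (SE 0.38, adjusted p = 0.114), with -1.59 (adjusted p = 0.0242) without V1167 and -0.66 (adjusted p = 0.195) without V1166.

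Kit, the receptor for granulosa KIT ligand, was lower in cKO MII eggs in both kinds of library, in RiboMinus libraries against the eggs of 1 control female. PolyA CPM ran from 383 over 475 to 630 in cKO eggs and from 562 over 805 to 1058 in controls. The female means did not overlap (418 to 556 and 763 to 924), and the difference was 1.78-fold (log2 -0.84, SE 0.23, adjusted p = 0.0204), with -0.71 (adjusted p = 0.0832) without V842 and -0.76 (adjusted p = 0.058) without V836. RiboMinus values of 129 to 182 CPM in the 4 cKO eggs lay below 411 to 425 in the 3 control eggs, a 2.9-fold difference (-1.54, SE 0.23, adjusted p = 0.015). Those 3 eggs are all from V1145, so female and genotype cannot be told apart, and the test assumes the spread of the other groups for that female. At GV3h the value was -0.64 (SE 0.23, adjusted p = 0.0547), at polyA GV -0.48 (SE 0.28, adjusted p = 0.322) and at RiboMinus GV -0.65 (SE 0.20, adjusted p = 0.208). At polyA GV it was -1.20 (adjusted p = 0.018) without V857 and 0.00 without V888. Exosc10 stood at 0.335 to 2.73 CPM in the 5 V857 oocytes and at 0 to 3.25 in the 10 of V888.

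Bmp15 was 1.59-fold higher in cKO than in control polyA MII eggs (log2 0.67, SE 0.11, adjusted p = 0.000628), and the ranges of 4553 to 5908 and 2113 to 4252 CPM did not overlap. The median gene was 0.12 higher in the same comparison. Of the 10 oocyte markers, which do not include Bmp15, 5 were higher and 0 lower there (median 0.66), where 18.9% of all genes were called. Their summed level was 14765 to 18766 CPM in cKO and 10721 to 15708 in control eggs. At RiboMinus MII their median was -0.19, beside 0.25 over all genes. Their part in the Bmp15 difference was not tested. In RiboMinus MII eggs the order was the other way, with 2514 to 3404 CPM in cKO and 3550 to 3882 in control eggs (-0.35, SE 0.24, adjusted p = 0.36). The 3 RiboMinus MII control eggs are all from female V1145, so for every gene there female and genotype cannot be told apart. Gdf9 did not pass in any genotype comparison. At polyA GV3h its difference was 0.21 (SE 0.12, adjusted p = 0.198), and it passed with library totals (0.44, adjusted p = 0.00822). In RiboMinus GV oocytes its median was 4006 CPM (884 to 4289) in cKO and 1807 (719 to 3725) in control oocytes, a difference of 0.73 (SE 0.23, adjusted p = 0.216). Bmp6 did not pass in any genotype comparison either: its largest differences were -0.40 (SE 0.16, adjusted p = 0.0774) at polyA GV3h, where medians were 80 and 96.5 CPM, and 0.71 (SE 0.27, adjusted p = 0.137) at RiboMinus MII, where 4 cKO eggs at 228 to 274 CPM lay above 3 control eggs at 135 to 158.

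The genotype difference itself differed between polyA and RiboMinus libraries at MII for 4 of 6 genes (9.43% of all genes). Of the 10 oocyte markers 4 were called higher and 1 lower in that test (median 0.81). The difference was higher in polyA libraries for Fgf8 by 2.66 (SE 0.63, adjusted p = 0.0103) and for Bmp15 by 0.98 (SE 0.21, adjusted p = 0.00528), and lower for Gdf9 (-0.85, SE 0.25, adjusted p = 0.039) and Bmp6 (-1.0, SE 0.31, adjusted p = 0.0425). The values of Gdf9 and Bmp6 lost their calls with only the groups compared (-0.92, adjusted p = 0.0901 and -1.08, adjusted p = 0.105). Gdf9 also lost its call with limma voom (-0.99, adjusted p = 0.0765) and without V841, V836, V853 or V1167 (-0.67 to -0.82). Bmp6 also lost it with no filter on low counts (-1.02, adjusted p = 0.0738) and without V841, V842, V836, V1166 or V1167 (-0.78 to -1.06). Fgf8 lost it without V1166 (2.22, adjusted p = 0.0531). In polyA MII eggs Fgf8 had only 14 to 82 reads per control egg and 18 to 79 per cKO egg. All these MII values rest on RiboMinus controls from female V1145 alone. The kinds of library also came from different females, so library type and female cannot be told apart. At GV 0 of 6 passed by edgeR (0.00404% of all genes), with 2 at an unadjusted p under 0.05 and 0 called by DESeq2.

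Other genes of the same pathways were listed by role. Of 17 BMP, activin and TGF-beta receptors and SMADs, 16 were tested in polyA libraries. At GV3h 2 were higher and 5 lower in cKO oocytes, with a median log2 difference of -0.32. The counts of this and the following lists at GV3h stand beside 25.2% of all genes called there and an all-gene median of 0.07. At polyA GV 2 were higher and 2 lower (median 0.13, 7.38% of all genes called). At polyA MII 2 were higher and 3 lower (median -0.12, 18.9% of all genes called). The RiboMinus medians of this list were -0.12 at GV and 0.00 at MII. Bmpr2, the type II receptor for GDF9 and BMP15, was lower at polyA GV (-1.64, SE 0.31, adjusted p = 0.00843), GV3h (-1.77, SE 0.26, adjusted p = 0.000273) and MII (-1.03, SE 0.25, adjusted p = 0.0109). Bmpr1b, a type I BMP receptor, was lower at the same stages (-0.92, -1.18 and -0.54, adjusted p from 0.000164 to 0.025), and Smad5, a BMP signal transducer, was higher (1.80, 2.14 and 1.51, adjusted p from 0.00133 to 0.0326). Of 10 other ligands, 7 were tested, and at GV3h 0 were higher and 4 lower (median -0.53), among them Rspo2, an oocyte-secreted WNT agonist (-0.53, SE 0.15, adjusted p = 0.0191). At polyA GV and MII 0 of the 7 were called (medians -0.31 and -0.18). The RiboMinus medians of the ligands were -0.37 at GV and 0.00 at MII. The 4 lower genes were Rspo2, Tgfb2, Tgfb3 and Fgf10, and with library totals Rspo2 (-0.31, adjusted p = 0.142), Tgfb2 (-0.17, adjusted p = 0.393) and Tgfb3 (-0.42, adjusted p = 0.0604) lost their calls. Tgfb2 also lost its call with DESeq2 (adjusted p = 0.0519) and 4 other settings, and Fgf10 without V946, V993, V951 or V982 (adjusted p from 0.0568 to 0.101). Rspo2 was also lower at RiboMinus MII (-1.48, SE 0.23), against the eggs of control female V1145 alone.

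Of 18 genes of Kit and PI3K signalling, all tested, 3 were higher and 5 lower at polyA GV3h (median -0.30), where 25.2% of all genes were called. Their median was -0.07 at polyA GV, -0.08 at polyA MII, 0.09 at RiboMinus GV and 0.14 at RiboMinus MII. Pik3r1, the regulatory subunit of PI3K, was lower at the 3 polyA stages (-1.02, -1.40 and -0.85, adjusted p from 8.94e-05 to 0.00995), as was Foxo3, the transcription factor that the pathway restrains (-0.63, -0.92 and -0.42, adjusted p from 0.000282 to 0.0402). Of 10 connexins and contact genes 0 were higher and 3 lower at GV3h (median 0.09). Their median was -0.45 at polyA GV, -0.16 at polyA MII, 0.30 at RiboMinus GV and 0.12 at RiboMinus MII. Cdh1, E-cadherin, was lower at the 3 polyA stages (-0.61, -0.86 and -0.39, adjusted p from 0.000273 to 0.041), and Cdh2, N-cadherin, at GV3h (-4.35, SE 0.47, adjusted p = 5.59e-05). Of 8 FGF receptors and feedback inhibitors tested 1 was higher and 2 lower at GV3h (median -0.28). Their median was -0.29 at polyA GV and -0.28 at polyA MII. Over the 10 tested in RiboMinus libraries the median was 0.02 at GV and 0.49 at MII. Spry4, an inhibitor of FGF signalling, was lower at GV3h (-1.31, SE 0.20, adjusted p = 0.00039) and GV (-1.01, SE 0.25, adjusted p = 0.0238). Of 4 proprotein convertases, which cleave the ligand precursors, 0 were higher and 1 lower at GV3h (Pcsk5, -1.92, SE 0.60, adjusted p = 0.0276). Their median was -0.04 at GV3h, -0.22 at polyA GV and -0.40 at polyA MII. In RiboMinus libraries it was 0.16 at GV and 0.19 at MII. With only the GV groups fitted, the polyA GV calls of Bmpr1b, Bmpr2, Smad5, Pik3r1, Foxo3, Cdh1 and Spry4 did not pass (adjusted p from 0.142 to 0.23), nor did that of Exosc10 (0.0825). At that stage each of these 7 genes also lost its call without at least 1 female; Smad5 was 0.85 (adjusted p = 0.35) without V857 and Cdh1 lost its call without any 1 of the 4 females. At polyA MII the calls of Bmpr1b, Foxo3 and Cdh1 were lost with library totals (adjusted p = 0.0708, 0.0983 and 0.129), that of Smad5 with limma voom (1.46, adjusted p = 0.152), and all 4 without 1 female or another; those of Bmpr2 and Pik3r1 at MII were not lost under any setting run. At GV3h Pcsk5 lost its call without V946, V993 or V982 and Rspo2 without V983, V993, V951 or V982.

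From GV to MII in polyA controls the BMP, activin and TGF-beta list had 6 genes higher and 1 lower of 16, and the Kit and PI3K list 7 higher and 3 lower of 18. Of all genes 42.5% were called in that comparison, so these counts say nothing particular to the lists; their medians were 0.48 and 0.26 beside -0.26 over all genes. Smad1 (1.92, SE 0.25, adjusted p = 1.50e-05) and Akt1, a kinase of the PI3K pathway (1.85, SE 0.23, adjusted p = 9.65e-06), were higher in MII eggs. Fgf2 was higher (2.38, SE 0.45, adjusted p = 0.000412) where Tgfb3 was lower (-1.17, SE 0.17, adjusted p = 3.91e-05), and Pik3r2, a further PI3K subunit (-2.32, SE 0.78, adjusted p = 0.0252), Tsc2 (-1.51, SE 0.21, adjusted p = 2.12e-05) and Myo10 (-2.48, SE 0.40, adjusted p = 0.000102), a myosin of transzonal projections, were lower. Myo10 was the 1 lower gene of the 10 connexins and contact genes, of which 3 were higher (median 0.71), among them Ctnnb1, beta-catenin (0.75, SE 0.23, adjusted p = 0.0169), and Cdh1 (0.71, SE 0.14, adjusted p = 0.000714). Both lost their calls with library totals (0.31, adjusted p = 0.282 and 0.28, adjusted p = 0.131), and Ctnnb1 also without V856 or V889 (adjusted p = 0.0845 and 0.0849). The call of Pik3r2 was lost without any 1 of V856, V889, V836 or V853 (-2.25 to -2.38, adjusted p from 0.0519 to 0.0912).

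Across the 16 polyA females, the genes whose log2 CPM followed each member most closely were taken from 5080 genes with an average log2 CPM of at least 5. The highest Pearson correlations were 0.977 for Gdf9 with Med27, 0.948 for Bmp15 with Pla2g12a, 0.920 for Bmp6 with Ppp2r5d, 0.980 for Fgf8 with Gm42817, 0.958 for Kit with Hipk2 and 0.995 for Gja4 with Psmc5. The next genes were Tmem109 and Oaz2 for Gdf9, Rnf5 and Zc3h15 for Bmp15, Ipo9 and Eef2k for Bmp6, Kat14 and Taf6l for Fgf8, Afdn and Jak1 for Kit, and Arrdc1 and Nrbp1 for Gja4. These correlations are descriptions over 16 points that fall into 3 stages and 2 genotypes. Among the members, Fgf8 and Gja4 followed each other (0.961), and Gdf9 ran against both (-0.928 and -0.918).

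Oocytes of the same female varied least for Gdf9 in polyA libraries, with a pooled SD of 0.14 on the log2 scale over 64 oocytes, and most for Fgf8 (0.48). Bmp15 had 0.22, Bmp6 and Kit 0.27 each and Gja4 0.30. Counting noise was not taken out of these SDs. Fgf8 had as few as 14 reads in a polyA oocyte, and Gdf9 had 19519 or more in each. In the 22 RiboMinus oocytes Gdf9 instead varied most (0.78) and Bmp6 least (0.15).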

How the data were processed

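Each deposited file lists the unnormalized counts of reads for every Ensembl gene in 1 oocyte, with 5 summary lines (8.43 to 16.98% of reads), which were left out. The submitters' processing notes name cutadapt 2.5, STAR 2.7.2a, HTSeq 0.9.1 and the build mm10; the annotation release and strand setting are not given in the sources used here. Symbols matched 55394 of 55573 IDs. Counts were summed per female and fitted with edgeR 4.0.16 (filterByExpr, TMM, glmQLFit, glmQLFTest) in R 4.3.3, all groups of a library type in 1 fit, or both types together for comparisons between them. Tests were two-sided, with Benjamini-Hochberg adjustment over all genes. Where a group has 1 female, its spread is assumed to be that of the other groups. Alternatives used DESeq2 1.42.0 and limma 3.58.1 (voom on oocytes, the female as a random block). The members and lists were chosen with earlier results of these data known. From each list, the genes called in the most genotype comparisons (at most 3) and the 2 largest called control GV to MII changes could be named, with the 3 genes most correlated with each member; not all of them are described. On simulated counts for the polyA GV3h comparison of 18400 genes, 39 of 42 genes with a 4-fold change and at least 10 CPM were recovered, 14 of 39 with a 2-fold change, and 0 unchanged genes were called. Over all levels 49 of 100 genes with a 4-fold and 14 of 100 with a 2-fold change were recovered. Far fewer genes were changed there than the 4849 called in the data, so these rates need not hold for the data. No 2 files were identical, and replicate oocytes differed by more than sampling noise. The rRNA files were not used here. Genome sequence and transcript models are GENCODE M21 on GRCm38.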

Additional observations from a re-analysis of the deposited data

Results flagged for a closer look

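Of 36 groups of 4 to 10 oocytes examined (6 genes in 6 groups), 1 held an oocyte far from the rest of its group at the 95% level, where chance flags about 1 group in 20. It was oocyte V1126_3 of the RiboMinus GV cKO group, with 884 CPM of Gdf9 beside 3441 or more in the other 6 oocytes. Values as low as 719 CPM occurred among the controls of that stage.

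Differences between groups that passed a test of the difference itself are repeated here by their log2 size. The GV to MII change of Bmp15 in polyA libraries was higher in cKO than in control oocytes by 0.88. The polyA and RiboMinus changes from GV to MII differed in controls for Gdf9 (1.68), Kit (1.14), Fgf8 (-3.72) and Gja4 (-2.13), and in cKO oocytes for Gdf9 (1.67), Bmp15 (1.22), Kit (1.69) and Gja4 (-1.46). The genotype difference at MII differed between polyA and RiboMinus libraries for Fgf8 (2.66), Bmp15 (0.98), Gdf9 (-0.85) and Bmp6 (-1.0). The RiboMinus MII controls behind the control and genotype values are female V1145 alone, and polyA and RiboMinus libraries came from different females, so library type and female cannot be told apart.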

How the results depend on the processing

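No called value of a member changed sign under any of the 8 other settings or with any 1 of 22 females left out (V1145 cannot be left out, being the whole of its group). Of 29 called values, 29 kept their calls with DESeq2, with DESeq2 size factors, with a mean of at least 50 counts and with each oocyte as a replicate, 28 with no filter, 27 with limma voom, 25 with library totals and 25 with only the groups compared; leaving out 1 female at a time ended 33 calls and left 151. Among the 37 uncalled values examined under each setting, those that changed sign were Fgf8 at polyA MII (0.00 with library totals, 0.16 with each oocyte as a replicate, 0.05 with voom, 0.16 without V842, with a range of -0.36 to 0.16 over the females), Bmp15 from GV to MII in polyA controls (-0.29 with library totals), Kit in polyA cKO oocytes (-0.11 with library totals, -0.07 without V888 to 1.12 without V857) and Bmp6 for library by stage in cKO oocytes (0.02 without V888 to -0.31 without V857). The other uncalled values were compared under library totals alone, where Gdf9 at polyA GV (-0.07 to 0.12), Bmp15 at GV3h (-0.08 to 0.15), and the interactions of Bmp6 in polyA (0.01 to -0.09) and Gdf9 in RiboMinus libraries (-0.04 to 0.04) changed sign.

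The number of members called moved by more than 1.5 times as follows. For polyA GV genotype, 0 became 2 with DESeq2, 2 with no filter, 3 with each oocyte as a replicate and 3 with voom, and 0 to 2 with a female left out. For GV3h, 2 became 5 with oocytes, 4 with voom and 4 with only the groups compared. For polyA MII, 3 became 1 to 3 with a female left out. For RiboMinus GV, 0 became 1 with no filter, 4 with oocytes, 1 with voom, and 0 to 1 with a female left out. For RiboMinus MII, 2 became 4 with oocytes and 4 with voom, and 1 to 3 with a female left out. For GV to MII in RiboMinus controls, 0 became 1 with DESeq2, 2 with oocytes, 2 with voom and 4 with only the groups compared; in RiboMinus cKO oocytes, 1 became 3 with DESeq2, no filter and oocytes, 2 with voom, 0 with only the groups compared, and 0 to 2 with a female left out. For GV to GV3h in cKO oocytes, 0 became 1 with oocytes. For the stage by genotype interaction, 1 became 2 with oocytes, 0 with only the groups compared and 0 to 1 with a female left out in polyA libraries, and 0 became 1 with no filter, 2 with oocytes and 1 with voom in RiboMinus libraries. For library by genotype at MII, 4 became 2 with only the groups compared and 2 to 4 with a female left out. Treating oocytes as replicates ignores that those of a female are not independent.

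When library totals replaced TMM, the share of all called genes that were higher went from 47 to 74.2% (polyA GV genotype), 49.5 to 70.5% (GV3h) and 49.5 to 65.9% (RiboMinus MII), and from 39.5 to 21.4% and 40.5 to 20% (polyA GV to MII in controls and cKO oocytes), and from 81.8 to 68.9% (polyA interaction), 47.7 to 28.2% and 55.8 to 20.7% (library by stage in controls and cKO oocytes); DESeq2 size factors moved it from 61.3 to 48.5% (library by genotype at MII). Counts of calls over all genes moved by more than 1.5 times as well. With only the groups compared, 1420 became 1 (polyA GV genotype), 2 became 5732 (GV to MII, RiboMinus controls), 591 became 0 (the same in cKO oocytes), 373 became 13 (polyA interaction), 5139 became 2773 (library by stage, cKO) and 2337 became 929 (library by genotype, MII). With DESeq2, 1420 became 2729, 8 became 1567 (RiboMinus GV genotype), 1857 became 5313 (RiboMinus MII), 2 became 1619, 591 became 2985, 373 became 1138 and 2337 became 4040. With a female left out, the lowest and highest were 110 and 1825 (polyA GV), 2976 and 4682 (GV3h, 4849 with all females), 2 and 1184 (RiboMinus GV), 2007 and 3746 (RiboMinus MII), 6 and 1879 (RiboMinus cKO, GV to MII) and 61 and 1251 (polyA interaction). Of 60 mean levels, 48 moved by less than 1 SD between the scalings. No paired analysis was possible because control and cKO oocytes came from different females, each of which gave oocytes of 1 stage, and the shared numbers link only RiboMinus with rRNA files, which were not compared.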
